A study of Arabidopsis thaliana with 20 samples.

Results

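Occupancy of the chromatin remodeller BRM was compared between Arabidopsis thaliana seedlings that lacked BCL7A and BCL7B (the group BRM bcl7ab, 2 libraries) and seedlings that had both proteins (the group BRM, 2 libraries). The 4 peak lists were taken from a series of 20 samples, of which 12 are peak lists of chromatin immunoprecipitation with sequencing (ChIP-seq) in 6 groups. Peaks were read at the level of genes, as genes with a transcription start site (TSS) within 2 kb of a peak summit, and at the level of regions with a peak in each of the 4 libraries. Of 17527 regions with a peak in any of the 4 libraries, 11047 had a peak in all 4, and 10148 of these lay within 2 kb of a TSS and were assigned to 9832 genes, 8917 of them protein coding.

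Plants of both groups carried pBRM:BRM-GFP, a GFP-tagged BRM under the BRM promoter, in the brm-1 mutant, so the tagged protein stood in for the missing BRM. In the BRM bcl7ab group the same transgene was in the bcl7a bcl7b double mutant, which the sample descriptions list under the names brip3 and brip4. All seedlings were 14 days old, grown in short days and harvested whole, and an antibody against GFP was used. In whole seedlings, a site occupied in fewer cells and a site occupied less in each cell cannot be told apart. The lists hold no measure of BCL7A or BCL7B protein, so the mutant genotype was not checked here, and no list from plants without GFP was used.

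SWI/SNF complexes use the energy of ATP to slide or evict nucleosomes, and so make DNA at promoters and enhancers more or less accessible. BRM is one of the ATPases of these complexes in Arabidopsis, where it acts in the vegetative phase change, flowering and hormone responses. BCL7A and BCL7B are small accessory proteins of the same complexes.

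Peak strength was taken as the place of its fold enrichment in its own list, as a percentile rank, where 0 is the weakest peak of the list and 100 the strongest. Ranks were used because the deposited fold enrichment is not scaled between libraries. A rank is relative, so it does not measure a loss or gain of occupancy shared by the whole genome. It also depends on how many weak peaks a list holds, and the lists differed in length. The median rank of the shared regions was 60.5 and 62.0 in BRM bcl7ab and 62.8 and 62.6 in BRM. In a region with several peaks the one with the highest fold enrichment was used. A change is the mean of BRM bcl7ab minus the mean of BRM throughout.

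The BRM bcl7ab libraries held 14770 and 15192 nuclear peaks, and the BRM libraries 15610 and 15640. The mean was 14981 ± 298 peaks in BRM bcl7ab and 15625 ± 21.2 in BRM (SD, n = 2 each, p = 0.333 in an exact two-sided permutation test, the smallest p that 2 libraries against 2 can give). Genes within 2 kb of a summit numbered 18443 and 19106 in BRM bcl7ab and 19335 and 19492 in BRM. The groups did not overlap in either number, and the difference in peaks was 644. The background of each library, recovered from its fold enrichments and p-values, was 25.6 and 30.9 fragments per position in BRM bcl7ab and 26.1 and 27.8 in BRM, so the depths of the groups overlapped. The background was the genome-wide one at 97.8% and 97.4% of peaks in BRM bcl7ab and at 94.0% and 93.4% in BRM, and a local one at the rest.

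Most bound genes were bound in both backgrounds. Of 37899 annotated nuclear genes, 16770 were bound in both BRM bcl7ab libraries and 17567 in both BRM libraries, and 15236 were bound in all 4. Only in BRM bcl7ab, meaning in both of its libraries and in neither BRM library, were 420 genes, with a median rank of 20.4. Only in BRM were 714 genes, with a median rank of 21.4. The genes of all 4 libraries had a median rank of 61.5, so genes bound in a single group lay toward the weak end of the lists. Of the 420 genes, 111 (26.4%) lay in a region with peaks in all 4 libraries, as did 131 (18.3%) of the 714. For these, the summit of the other group lay outside the 2 kb window, in a region that was still occupied.

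The 3 strongest genes of each group alone all showed that pattern. PP2CA, a protein phosphatase of abscisic acid signalling on chromosome 3, counted as bound only in BRM. Its region had ranks of 99.5 and 99.4 in BRM bcl7ab and 99.1 and 99.6 in BRM. The summit lay 2902 and 2908 bp downstream of the TSS in BRM bcl7ab, against -23 and +75 bp in BRM. AT1G19190, an alpha/beta-hydrolase family gene, lay beside JAZ1, a jasmonate repressor gene, and its strongest peaks in BRM were those of the JAZ1 region. That region had ranks of 96.9 and 98.4 in BRM bcl7ab and 99.4 and 98.7 in BRM, with the summit at -2704 and -2694 bp from the TSS of AT1G19190 in BRM bcl7ab and at -1541 and -1531 bp in BRM. AT1G19190 also had weaker peaks in a region assigned to AT1G19200, which fell in rank. Its ranks were 17.4 and 12.9 in BRM bcl7ab and 61.6 and 68.8 in BRM. The summits there lay at +2091 and +2036 bp from the TSS of AT1G19190 in BRM bcl7ab and at +1970 and +1986 bp in BRM. AT4G02985, an RNA of unknown function in the region of ERF-1, differed by the limit of the window, with the summit at +2060 and +2013 bp in BRM bcl7ab and at +1656 and +1907 bp in BRM. PIRL2, which encodes a leucine-rich repeat protein, AT3G01975, a long noncoding RNA gene, and AT5G14105 were the 3 strongest of the BRM bcl7ab group alone. Their regions had ranks of 97.5 to 99.1 in BRM bcl7ab and 96.0 to 98.8 in BRM.

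The order of regions by strength was largely kept without BCL7A and BCL7B. Spearman's correlation of the ranks across the 11047 regions was 0.921 within BRM bcl7ab, 0.915 within BRM and 0.860 to 0.870 between libraries of the 2 groups. These regions share libraries and are not independent replicates. The same values were 0.855, 0.857 and 0.813 to 0.834 for peak width, and 0.811, 0.794 and 0.738 to 0.750 for summit position. In each measure, libraries of different groups were less alike than libraries of the same group. The strongest regions had nearly identical ranks, but ranks end at 100 and so leave little room to differ there. The region of AT5G56240 ranked 99.997 and 99.997 in BRM bcl7ab and 99.997 and 99.990 in BRM, with its summit 225 and 291 bp downstream of the TSS in BRM bcl7ab and 220 and 210 bp in BRM. Its fold enrichment was 17.1 and 18.4 in BRM bcl7ab and 15.4 in each BRM library. At LBD41, a LOB domain gene also among the strongest, the order was the opposite, with 12.0 and 13.8 in BRM bcl7ab and 14.2 and 14.6 in BRM. GATA1, a transcription factor gene, had its summit at +523 and +501 bp in BRM bcl7ab and at +533 and +539 bp in BRM.

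BRM summits stood closer to the TSS in BRM bcl7ab. The share of summits within 200 bp of a TSS was 34.9% and 35.3% in BRM bcl7ab, against 30.5% and 30.4% in BRM, with means of 35.1 ± 0.274% in BRM bcl7ab and 30.5 ± 0.0368% in BRM (SD, n = 2 each, exact permutation p = 0.333). The median summit lay 133 and 137 bp downstream of the TSS in BRM bcl7ab and 177 and 180 bp downstream in BRM. The groups did not overlap, and the difference of 43.5 bp was far larger than the difference between replicates. At the 10148 shared regions with a gene the medians were +144 and +147 bp in BRM bcl7ab and +191 and +192 bp in BRM. Summits upstream of the TSS made up 30.1% and 30.0% in BRM bcl7ab and 26.5% and 25.7% in BRM. Summits 0 to 750 bp downstream of it made up 53.8% and 54.0% in BRM bcl7ab and 57.6% and 58.6% in BRM.

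**Figure D1:**
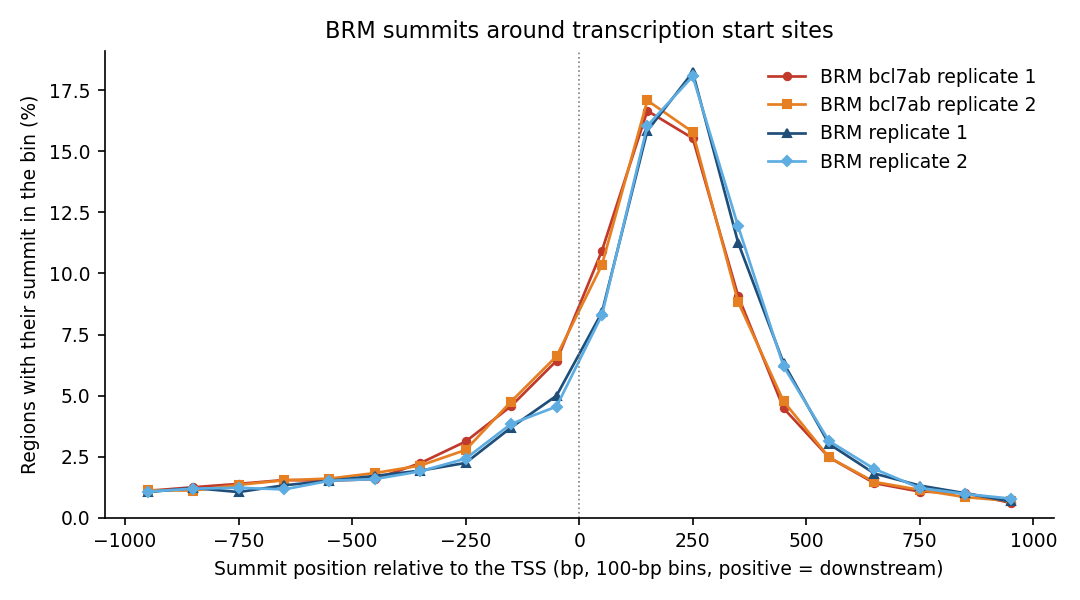
Share of the 10148 shared regions with a gene (y axis, percent) whose BRM summit fell in each 100-bp bin around the TSS (x axis, bp, positive downstream), with 1 line per library. The most frequent bin was 100 to 200 bp in both BRM bcl7ab libraries (16.7% and 17.1%) and 200 to 300 bp in both BRM libraries (18.2% and 18.1%).

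Region by region, the move was small and common rather than large and rare. Set against a BRM library, a BRM bcl7ab library had its summit over 50 bp nearer to the TSS in 32.6% to 33.2% of regions and over 50 bp farther in 23.6% to 24.3%. Between replicates the shares were balanced, with 26.8% nearer and 26.5% farther in BRM bcl7ab and 27.0% nearer and 26.8% farther in BRM. The median move between groups was -12 to -16 bp, in the direction of the promoter, against -1 bp between replicates of either group. The 4 summits lay within 50 bp of each other in 1279 regions (11.6%).

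Tested one by one with limma, summits of 59 regions (0.581% of 10148) moved toward the TSS and summits of 86 (0.847%) moved away from it, at a Benjamini-Hochberg adjusted p under 0.05. Without any one of the 4 libraries no region passed in either direction, so these calls need all 4 libraries. As a description, a region was called separated when the groups did not overlap and the gap between them was larger than the spread within either group. By that measure 754 regions (7.43%) separated toward the TSS and 473 (4.66%) away from it. Separated moves toward the TSS outnumbered moves away where the summit lay within 200 bp downstream of the TSS (258 of 2855 regions toward, 72 away) and in the 200 to 750 bp beyond (318 of 3635 toward, 106 away). Upstream of the TSS the order was the opposite, with 143 of 2987 regions toward and 219 away. Both are moves in the same direction along the DNA, from the gene body toward and past the promoter. Beyond 750 bp downstream of the TSS, 35 of 671 regions separated toward it and 76 away, so moves there ran mostly the other way.

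The largest single moves came from wide regions, where the highest point of the peak switched between distant places. AGP17 encodes an arabinogalactan protein of the cell surface. Its summit was at +41 and +18 bp in BRM bcl7ab, against -1879 and -1854 bp in BRM (adjusted p = 0.015, limma), while its peaks were 3720 and 3919 bp wide in BRM bcl7ab and 3726 and 3632 bp in BRM. NAI1, a bHLH factor needed for endoplasmic reticulum bodies, had its summit at +587 and +505 bp in BRM bcl7ab and at +1838 and +1836 bp in BRM. PHOT1, a blue light receptor, had its summit at +919 and +908 bp in BRM bcl7ab and at +2132 and +2134 bp in BRM. The other 5 of the 8 largest moves toward a TSS were at AT5G03955, AT2G20562 (a taximin peptide gene), AT5G52840, AT2G09725 and MIR5642b. All 8 had passed limma except AT5G52840, whose BRM summits lay at -1653 and -2595 bp and so differed between replicates.

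Among the 8 largest moves away from the TSS, TPS8, of the trehalose-6-phosphate synthase family, had its summit at -1926 and -1801 bp in BRM bcl7ab and at +246 and +237 bp in BRM. ERF9, an ethylene response factor gene, had summits at +2677 and +2708 bp in BRM bcl7ab and at +462 and +561 bp in BRM. SMT2, which encodes a sterol methyltransferase, had summits at +1991 and +1970 bp in BRM bcl7ab and at +566 and +348 bp in BRM. In these 3 regions the replicates lay close together and the groups over 1 kb apart. NSP1, AT5G65925, AT4G40050, AT5G65660 and AT5G01380 made up the rest. All 8 passed limma except AT5G01380, where the BRM bcl7ab summits lay far apart (-1438 and +2602 bp in BRM bcl7ab, +257 and +266 bp in BRM). The rank of these regions changed little, for example 96.9 and 96.8 in BRM bcl7ab and 95.3 and 95.4 in BRM at TPS8.

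**Figure D2:**
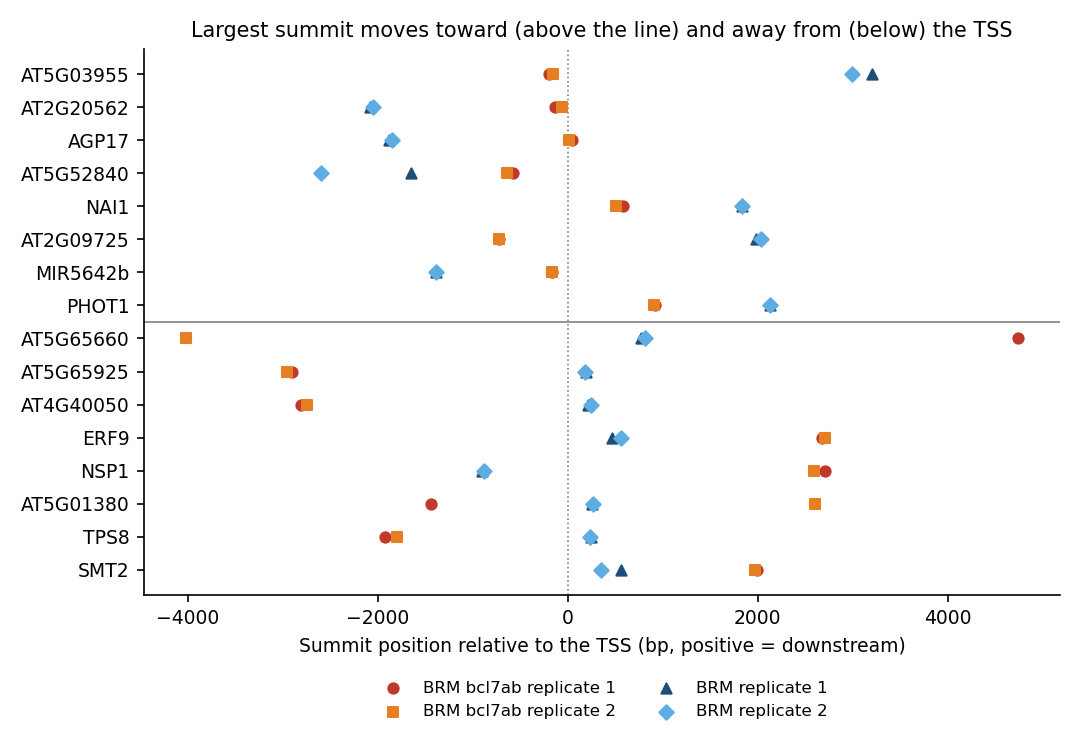
Summit position (x axis, bp from the TSS, positive downstream) in each of the 4 libraries for the 8 regions with the largest separated move toward the TSS (above the line) and the 8 with the largest move away (below it), each region with 1 peak per library. At AGP17 the BRM bcl7ab summits lie at +41 and +18 bp and the BRM summits at -1879 and -1854 bp, and at AT5G01380 the 2 BRM bcl7ab summits lie on opposite sides of the BRM summits.

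Peak width did not follow. The median width was 799 and 841 bp in BRM bcl7ab and 808 and 823 bp in BRM (exact permutation p = 1). limma called 0 of 11047 regions (0%) for width, with 930 regions at an unadjusted p under 0.05, of which 456 were narrower and 474 wider in BRM bcl7ab. Separated regions were as many in each direction, 682 narrower (6.17%) and 679 wider (6.15%). The region of LAS, a GRAS transcription factor needed for axillary meristems, was 593 and 1328 bp wide in BRM bcl7ab and 3224 bp in each BRM library. GC1, a golgin gene, WR3, a nitrate transporter gene, WRKY61, and AT1G10585, a bHLH gene, were the other 4 of the 5 with the largest separated decrease, none of which passed limma. CRN, which encodes a membrane pseudokinase of CLAVATA signalling, went the other way, with 1246 and 1359 bp in BRM bcl7ab and 408 and 539 bp in BRM. AT4G20000, AT4G26860, PP2-A8 and AT5G18400 were the other 4 of the 5 with the largest separated increase.

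The rank of BRM peaks changed at few single regions past the test. limma called 55 of 11047 regions lower in BRM bcl7ab (0.498%) and 31 higher (0.281%), and 2270 regions had an unadjusted p under 0.05, 1269 of them lower and the rest higher. With equal numbers of peaks in each list, 1045 of 10720 regions were lower and 1190 higher at an unadjusted p under 0.05. The excess of lower regions thus depended on the length of the lists. The calls also rest on the settings of the test. limma called 0 regions in either direction without the trend of the variance on mean rank (1006 lower and 817 higher at an unadjusted p under 0.05), and 0 among the 7268 regions left when peaks of -log10 q below 5 were dropped (917 lower and 635 higher at an unadjusted p under 0.05). The rank calls named below thus passed in neither of these fits. The counts rest on single libraries too. They were 88 lower and 11 higher without BRM bcl7ab replicate 1, 159 lower and 15 higher without BRM bcl7ab replicate 2, 20 lower and 86 higher without BRM replicate 1, and 6 lower and 63 higher without BRM replicate 2. By the description of separation, 1242 regions were lower (11.2%) and 1034 higher (9.36%). The 86 regions called by limma were all separated. Their median rank was 88.7 for the lower and 90.6 for the higher ones, so most were strong peaks. The test with the trend favoured such peaks, because its standard error was smaller near the top of the ranks. This error was 0.518 at AT5G56240, among the strongest regions, and 7.59 at SPL9, with ranks of 54.7 to 63.6. Whether strong peaks changed more often than weak ones thus cannot be read from these calls.

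The sequences under 8 of the called summits, shown here because the regions that fell and those that rose differed in place and in base composition, reach 75 bp to each side of the mean summit. They are the 4 with the largest change in each direction among called regions with a named gene, whose 4 summits lay within 100 bp and whose window held no untranslated region. G and C are in capitals, coordinates are those of TAIR10.1 (RefSeq), and the sequence is that of the strand of the gene. The first 4 windows, from regions lower in BRM bcl7ab, lie in coding exons.
HSC70-1, chr5:556179-556329, minus strand: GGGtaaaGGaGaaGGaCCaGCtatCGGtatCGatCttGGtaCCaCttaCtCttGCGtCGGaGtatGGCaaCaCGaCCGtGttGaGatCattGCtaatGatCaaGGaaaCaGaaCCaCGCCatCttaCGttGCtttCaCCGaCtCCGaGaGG
SRG3, chr3:349729-349879, minus strand: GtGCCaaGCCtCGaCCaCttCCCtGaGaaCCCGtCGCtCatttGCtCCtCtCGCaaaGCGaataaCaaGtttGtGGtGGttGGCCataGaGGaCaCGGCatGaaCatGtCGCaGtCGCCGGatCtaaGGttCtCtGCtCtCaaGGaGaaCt
CYP81D4, chr4:17564221-17564371, minus strand: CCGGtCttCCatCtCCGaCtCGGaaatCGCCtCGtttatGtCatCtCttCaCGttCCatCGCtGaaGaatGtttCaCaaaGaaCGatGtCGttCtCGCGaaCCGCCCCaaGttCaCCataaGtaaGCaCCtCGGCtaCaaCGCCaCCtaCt
HAT9, chr2:9705857-9706007, minus strand: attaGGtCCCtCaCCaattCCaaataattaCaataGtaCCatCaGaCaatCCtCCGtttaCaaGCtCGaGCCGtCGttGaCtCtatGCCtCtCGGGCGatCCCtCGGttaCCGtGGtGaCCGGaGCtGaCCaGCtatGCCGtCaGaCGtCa
The other 4, from regions higher in BRM bcl7ab, lie between genes, upstream of the TSS.
XTH16, chr3:8549462-8549612, plus strand: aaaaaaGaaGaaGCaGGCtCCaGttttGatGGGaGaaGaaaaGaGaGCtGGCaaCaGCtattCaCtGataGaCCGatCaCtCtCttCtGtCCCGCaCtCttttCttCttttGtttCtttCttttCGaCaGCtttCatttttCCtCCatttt
VLN3, chr3:21251947-21252097, minus strand: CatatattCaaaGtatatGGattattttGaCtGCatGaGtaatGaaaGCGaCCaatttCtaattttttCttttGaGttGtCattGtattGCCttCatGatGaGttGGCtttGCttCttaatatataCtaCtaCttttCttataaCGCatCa
APC10, chr2:7951371-7951521, minus strand: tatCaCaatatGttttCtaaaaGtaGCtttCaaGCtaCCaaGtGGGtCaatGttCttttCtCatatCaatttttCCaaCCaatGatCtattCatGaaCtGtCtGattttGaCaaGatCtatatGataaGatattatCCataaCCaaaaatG
PUP18, chr1:21443525-21443675, minus strand: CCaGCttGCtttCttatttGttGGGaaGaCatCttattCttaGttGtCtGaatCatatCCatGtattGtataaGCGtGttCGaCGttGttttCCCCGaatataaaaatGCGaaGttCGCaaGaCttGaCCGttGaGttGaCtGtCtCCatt
The share of G and C was 49.7%, 53.6%, 51.0% and 51.7% in the 4 coding windows, and 40.4%, 29.8%, 29.8% and 39.1% in the 4 upstream windows. Called falls that were larger but outside the limits of this choice were of both kinds. The windows of AT5G28280 and AT2G04690 lay between genes and held 17.2% and 27.8% G and C. That of LAS lay in a coding exon and held 58.9%.

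HSC70-1 encodes a constitutive cytosolic chaperone. Its region on chromosome 5 had ranks of 77.6 and 76.5 in BRM bcl7ab, against 90.1 and 90.8 in BRM, and fell by 13.5 (SE 2.33, adjusted p = 0.048, limma). SRG3, named for senescence, had ranks of 83.3 and 81.8 in BRM bcl7ab, against 94.2 and 94.8 in BRM (adjusted p = 0.030, limma). CYP81D4, a cytochrome P450 gene, had 85.5 and 83.8 in BRM bcl7ab, against 95.3 and 95.4 in BRM. In all 3 the replicates lay within 2 ranks of each other and the group means 10 or more apart. HAT9, a homeodomain-leucine zipper factor gene, had 82.0 and 83.5 in BRM bcl7ab and 92.2 and 93.6 in BRM.

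XTH16 encodes an enzyme that cuts and rejoins xyloglucan in the cell wall. Its upstream peak had ranks of 96.0 and 97.1 in BRM bcl7ab, against 88.0 and 82.1 in BRM, a rise of 11.5 (SE 1.88, adjusted p = 0.039, limma). VLN3, which encodes an actin-bundling villin, had 93.8 and 95.9 in BRM bcl7ab and 83.8 and 84.9 in BRM. APC10, a subunit gene of the anaphase-promoting complex, had 94.1 and 95.9 in BRM bcl7ab and 86.8 and 87.3 in BRM. PUP18, of the purine permease family, had 99.5 and 99.0 in BRM bcl7ab and 95.2 and 94.5 in BRM. The last of these reached a fold enrichment of 9.30 and 8.36 in BRM bcl7ab and 5.86 and 5.64 in BRM.

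Larger separated falls were found at single genes. AT5G28280, a transcribed pseudogene, had ranks of 17.4 and 8.87 in BRM bcl7ab, against 76.1 and 76.0 in BRM, a fall of 62.9 (SE 8.97, adjusted p = 0.030, limma). AT2G04690, of the pyridoxamine 5′-phosphate oxidase family, had 25.2 and 46.3 in BRM bcl7ab and 92.8 and 92.6 in BRM. LAS had 20.1 and 27.8 in BRM bcl7ab and 79.2 and 71.9 in BRM (adjusted p = 0.047, limma), with a fold enrichment of 1.77 and 1.85 in BRM bcl7ab and 3.47 and 3.06 in BRM. Its summit was in a coding exon, and its region was also among the 5 with the largest separated decrease in width. The other 4 of those, GC1, WR3, WRKY61 and AT1G10585, were separated lower in rank as well, by 13.8 to 29.7, without passing limma. AT1G19200 and AT1G68470 also passed limma. AT1G34320, VAR2 (a thylakoid protease gene), AT2G45220, AT4G17810 and AT2G42150 had mean changes of -48.7 to -45.1 ranks but missed the threshold, with adjusted p-values of 0.052 to 0.076.

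Of the 10 largest separated rises, 2 passed limma. NTMC2T6.1, which encodes a lipid-binding protein, had ranks of 55.4 and 55.0 in BRM bcl7ab and 6.01 and 0.265 in BRM, a rise of 52.1 (SE 9.13, adjusted p = 0.0498, limma). AT1G24148 had 57.9 and 62.8 in BRM bcl7ab and 8.01 and 11.1 in BRM. Those that missed the threshold included NCED3, an enzyme gene of abscisic acid synthesis, with 64.6 and 56.1 in BRM bcl7ab and 6.02 and 30.7 in BRM (adjusted p = 0.083, limma). They also included CP31B, a chloroplast RNA-binding protein gene, with 73.9 in each BRM bcl7ab library and 13.9 and 39.0 in BRM (adjusted p = 0.066, limma). AT1G49230, ELP (an extensin-like protein gene), AT5G26020, AMY2 (an alpha-amylase gene), AT3G08205 and AT3G04920 completed the 10. These were weak peaks in BRM, and several of them differed between its replicates.

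**Figure D3:**
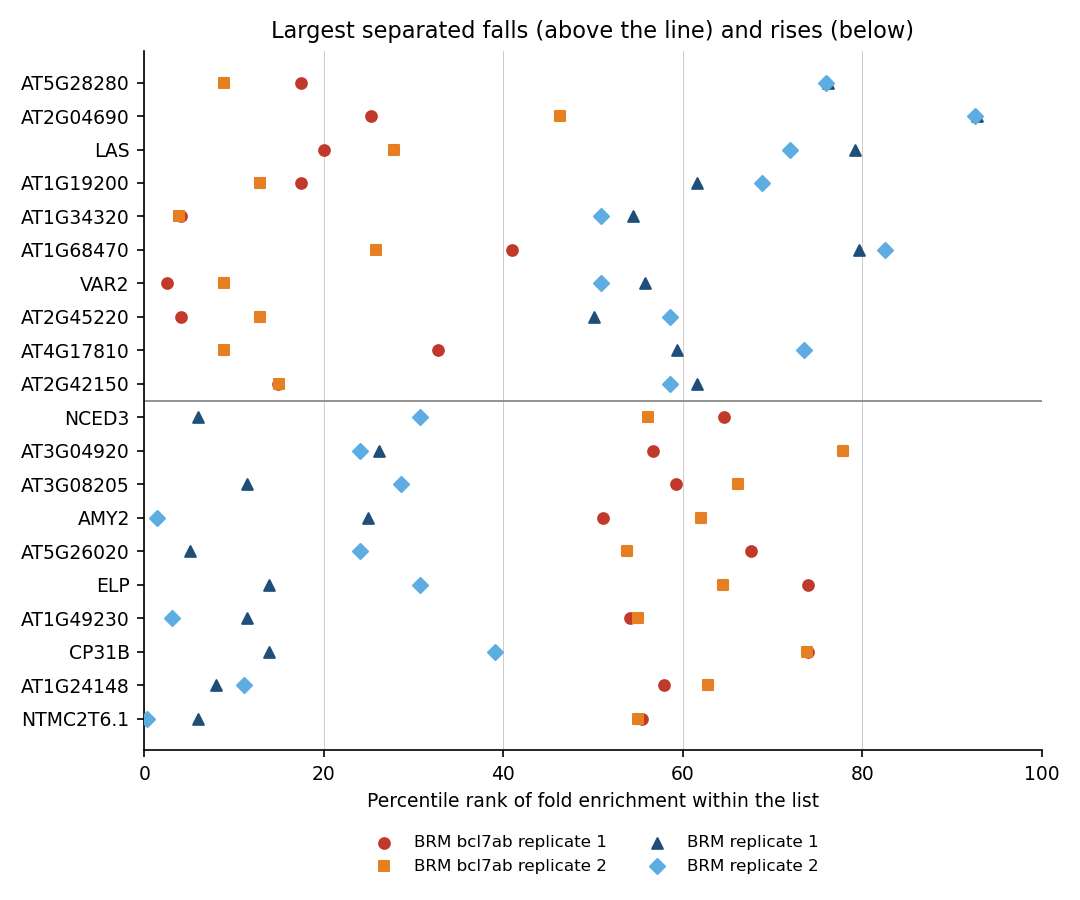
Percentile rank of fold enrichment (x axis) in each of the 4 libraries at the 10 regions with the largest separated fall (above the line) and the 10 with the largest separated rise (below it). LAS had 20.1 and 27.8 in BRM bcl7ab and 79.2 and 71.9 in BRM, and NTMC2T6.1 had 55.4 and 55.0 in BRM bcl7ab and 6.01 and 0.265 in BRM.

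Whether a peak weakened or strengthened went with where it stood relative to the gene. Regions whose mean summit lay upstream of the TSS had a median rank change of +1.73, with 451 of 2987 separated higher (15.1%) and 228 lower (7.63%). Regions with the summit 0 to 200 bp downstream had a median change of -0.99, with 208 of 2855 higher and 300 lower. Regions 200 to 750 bp downstream, here called body regions, had a median change of -2.80, with 172 of 3635 higher (4.73%) and 567 lower (15.6%). These limits of the body were chosen after the values were seen. Farther downstream the median change was -1.05 over 671 regions, and away from any TSS it was +2.49 over 899 regions. Of the 55 regions that limma called lower, 33 were body regions and 10 upstream, and of the 31 called higher, 3 were body regions and 20 upstream. Body regions are 32.9% of all shared regions and upstream regions 27.0%.

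The same was measured with 1 value per library. The median rank of body regions was above that of upstream regions by 4.16 and 4.17 in the BRM bcl7ab libraries and by 10.7 and 11.9 in the BRM libraries. The difference of -7.11 was larger than the spread between replicates (exact permutation p = 0.333). It was -7.25 among regions with 1 peak in each library and -7.55 among regions of protein-coding genes. The type of background differed between groups, as given above. Among regions where each library had the genome-wide background, the difference was -5.83.

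**Figure D4:**
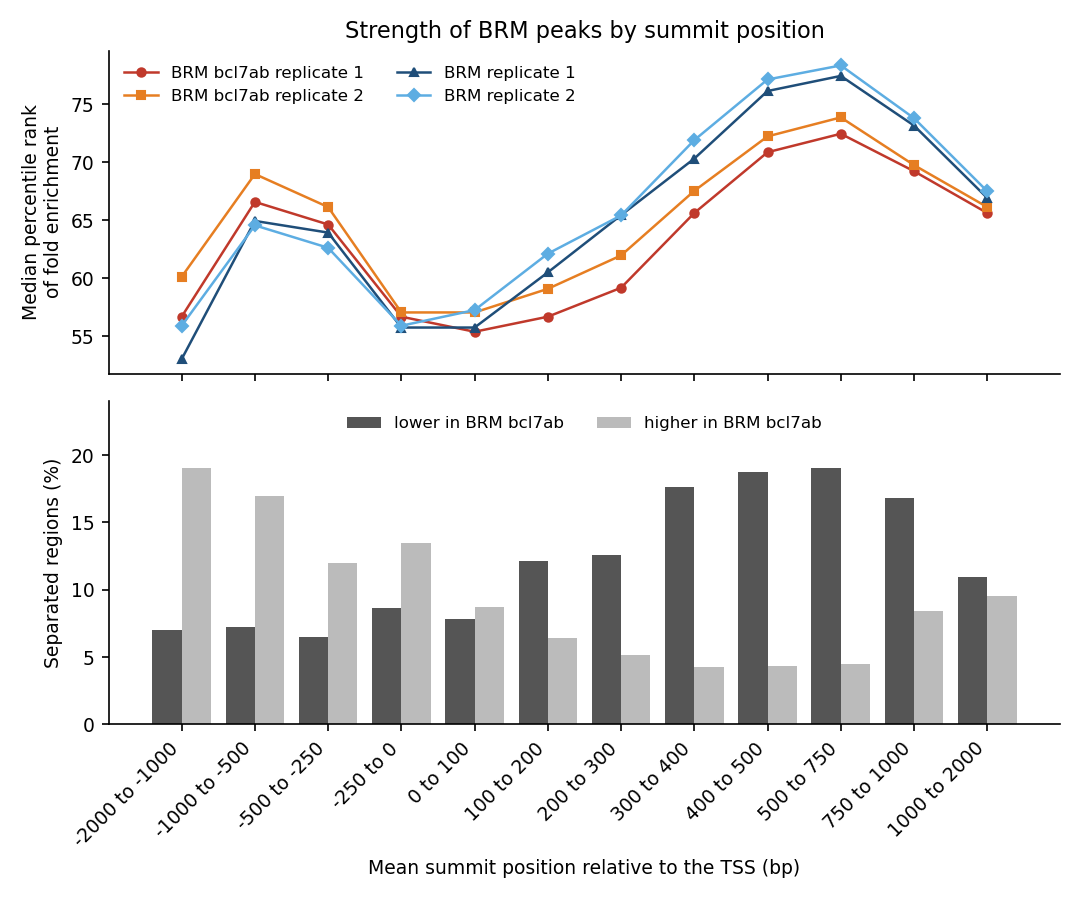
Upper panel, median percentile rank in each library (y axis) by the mean summit position of the region (x axis, bins in bp from the TSS). Lower panel, percent of the regions of each bin that separated lower (dark) or higher (light) in BRM bcl7ab. At 500 to 750 bp, 19.1% separated lower and 4.46% higher, and at -2000 to -1000 bp, 6.99% separated lower and 19.0% higher.

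Base composition moved with the same change. Over the 300 bp around the mean summit, the median share of G and C was 40.7% in regions that separated lower, 35.3% in those that separated higher and 37.7% in all 11047. It was 46.0% in the 55 regions called lower by limma and 33.7% in the 31 called higher. When the regions were divided into quartiles by this share, the median rank change was +1.44 in the quartile poorest in G and C (17.7% to 33.3%), +0.57 and -1.30 in the next quartiles, and -3.57 in the richest (43.3% to 66.3%). Of the 55 called lower by limma, 31 were in the richest quartile, as was 1 of the 31 called higher. The median rank of the richest quartile was above that of the poorest by 2.34 and 3.52 in BRM bcl7ab and by 11.2 and 12.3 in BRM, a difference of -8.83 (exact permutation p = 0.333).

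Position and base composition were tied to each other, with a median of 33.7% G and C in upstream regions, 38.7% at 0 to 200 bp and 42.3% in the body. Each kept a part of the change when the other was held. Within the 4 quartiles of G and C content, the difference between body and upstream regions was -3.69, -6.13, -4.04 and -3.89 ranks. Within upstream, start and body regions, the difference between the richest and the poorest quartile was -5.48, -5.59 and -5.67 ranks. Libraries can also differ in how they recover DNA of different base composition. The part of this in the changes of rank was not tested.

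**Figure D5:**
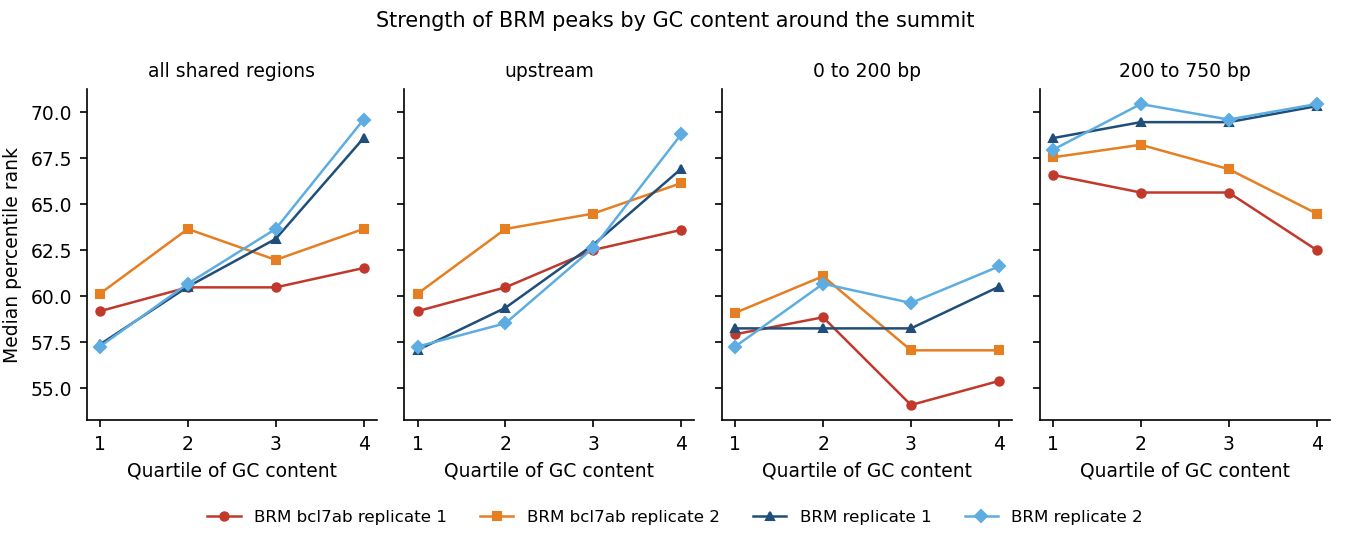
Median percentile rank in each library (y axis) by quartile of the G and C content of the 300 bp around the summit (x axis, 1 the poorest, 4 the richest), over all shared regions and within 3 classes of position. In the richest quartile of all regions, the medians were 61.5 and 63.7 in BRM bcl7ab and 68.6 and 69.6 in BRM.

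Short motifs were counted on both strands of the same 300 bp, as a description. GAGAGA, a GA repeat bound by plant GAGA factors, was in 53.8% of regions that separated lower, 37.5% of those that separated higher and 47.2% of all. Its share followed position, with 28.5% upstream, 61.6% at 0 to 200 bp and 60.2% in the body. Within upstream regions it was 36.4% in those that separated lower and 27.9% in those that separated higher, and within regions at 0 to 200 bp 69.0% and 57.7%. Within body regions it was 58.2% and 55.2%, both below the share of all body regions. CACGTG, the G-box of bHLH and bZIP factors, was in 9.5% of regions separated lower, 11.9% of those separated higher and 11.4% of all. AAACCCTA, the telo-box, was in 8.70%, 6.58% and 8.53% in the same order, and TGGGCC, the site of TCP factors in ribosomal protein promoters, in 5.56%, 7.54% and 6.16%. GGNCCCAC, another TCP site, which overlaps the last where N is G, was in 1.45%, 3.38% and 2.17%.

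Peaks at 3 genes of jasmonate synthesis and signalling fell in rank. The group of these genes was put together after the values were seen, so its counts are a description. Of its 30 genes, 26 were bound in all 4 libraries, and 24 shared regions were assigned to them, with a median change of -1.91 against -0.97 over all assigned regions. Separated lower were 7 of the 24 (29.2%), against 11.7% of all assigned regions and 15.6% of body regions. Separated higher were 2 (8.33%, against 8.79% of all assigned regions). limma called 3 lower, against 52 of all 10148 assigned regions. The 24 regions had a median rank of 90.3, against 61.4 over all assigned regions. The test with the trend favoured such strong peaks, so strength enters this count. The median summit of the 24 lay at +203.5 and +201.5 bp in BRM bcl7ab and at +373.5 and +398 bp in BRM, so position enters these shares. The 3 called regions belong to JAZ8, OPR3 and CYP94B3. JAZ8, a repressor of jasmonate responses, had ranks of 75.8 and 72.2 in BRM bcl7ab and 93.6 and 91.3 in BRM (adjusted p = 0.030, limma). OPR3, an enzyme of jasmonate synthesis, had 91.1 and 89.9 in BRM bcl7ab and 97.6 and 97.8 in BRM. CYP94B3, which inactivates the hormone, had 86.8 and 87.5 in BRM bcl7ab and 94.9 and 94.5 in BRM.

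Other members of the group were lower without passing the test. AOC1, another enzyme gene of jasmonate synthesis, had 86.2 and 84.4 in BRM bcl7ab and 92.6 and 90.8 in BRM, and its summit was at -4 and -54 bp in BRM bcl7ab and at +403 and +393 bp in BRM. JAZ12, AOC3 and AOS were also separated lower. At JAZ1, JAZ5 and JAZ6 the rank stayed above 94 in each library and the summit changed place. JAZ1 had its summit at -658 and -648 bp in BRM bcl7ab and at +505 and +515 bp in BRM. JAZ6 had its summit at -249 and -257 bp in BRM bcl7ab and at +472 and +478 bp in BRM. JAZ5 had its summit at -405 and -414 bp in BRM bcl7ab and at +498 and +583 bp in BRM. All 3 summits were in the gene body in BRM and upstream in BRM bcl7ab. CEJ1, a DREB-type factor gene, had both regions separated higher, one of them at 82.0 and 85.0 in BRM bcl7ab and 61.0 and 60.1 in BRM.

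Other called genes, named here after their values were seen, had varied roles. Among those lower in BRM bcl7ab were HK3, a cytokinin receptor gene (77.0 and 78.3 in BRM bcl7ab, 90.3 and 91.7 in BRM), ABR1, an AP2-type repressor of abscisic acid responses (91.6 and 93.0 in BRM bcl7ab, 98.5 and 98.6 in BRM), and CPL2, a phosphatase gene of the RNA polymerase II tail (56.7 and 67.5 in BRM bcl7ab, 94.9 and 94.7 in BRM). AT3G57110, annotated as exonuclease V, had the lowest adjusted p (0.011, limma), with ranks of 80.7 and 83.1 in BRM bcl7ab and 98.3 and 98.9 in BRM. Among those higher were NIA2, a nitrate reductase gene (97.1 and 96.3 in BRM bcl7ab, 90.6 and 90.4 in BRM), SAMDC, of polyamine synthesis (96.1 and 96.6 in BRM bcl7ab, 89.8 and 87.9 in BRM), and ADF3, an actin-severing factor gene (87.1 and 88.6 in BRM bcl7ab, 66.0 and 64.6 in BRM). GI, a clock and flowering gene, rose in rank (90.6 and 89.4 in BRM bcl7ab, 76.8 and 76.0 in BRM), and its summit was at -846 and -722 bp in BRM bcl7ab and at +169 and +131 bp in BRM.

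Among genes of the vegetative phase change, 13 of 16 were bound in all 4 libraries, and 11 regions were assigned, 1 separated lower (9.09%) and 2 higher (18.2%), against 11.7% of all assigned regions lower and 8.79% higher. SPL13A, one of the SPL factors repressed by miR156, was called higher by limma, with ranks of 98.2 in each BRM bcl7ab library and 92.5 and 94.2 in BRM (adjusted p = 0.0498). The one separated lower was TOE1, an AP2-type target of miR172, which differed by little (95.0 in each BRM bcl7ab library, 95.2 and 95.1 in BRM) and changed sign with equal numbers of peaks. SPL9, of the same family, had 63.6 and 62.0 in BRM bcl7ab and 57.1 and 54.7 in BRM. SPL10 had 73.9 and 78.7 in BRM bcl7ab and 66.0 and 82.1 in BRM, so the groups overlapped. The MIR156C locus, a source of miR156, had 93.8 and 90.7 in BRM bcl7ab and 88.9 and 92.4 in BRM. MIR172B, whose miRNA acts later in the phase change, had 25.2 and 42.1 in BRM bcl7ab and 65.0 and 55.9 in BRM (adjusted p = 0.174, limma).

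Of 18 flowering genes, 9 were bound in all 4 libraries and 7 regions were assigned, 2 of them separated lower (28.6%) and 0 higher, beside the 11.7% and 8.79% of all assigned regions. SVP, a repressor of flowering, had 92.9 and 94.3 in BRM bcl7ab and 97.9 and 98.3 in BRM (adjusted p = 0.052, limma). AP3, a floral organ gene, had 65.6 and 67.5 in BRM bcl7ab and 85.2 and 77.1 in BRM. At FLC, a repressor of flowering, the ranks were 25.2 and 51.4 in BRM bcl7ab and 45.4 and 33.0 in BRM and overlapped. Of 22 meristem, boundary and polarity genes, 16 regions were assigned, 3 separated lower (18.8%) and 2 higher (12.5%), beside the same 11.7% and 8.79%. PHV had 60.5 and 70.4 in BRM bcl7ab and 82.2 and 84.3 in BRM at its start, while PHB and CNA, of the same HD-ZIP III family, were separated higher. CNA had 51.1 and 56.1 in BRM bcl7ab and 33.1 and 30.7 in BRM. The members of this family thus did not share a direction.

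Hormone and light genes held strong peaks, with a median rank of 89.0 over 19 regions, 1 separated lower (5.26%) and 2 higher (10.5%), against 11.7% of all assigned regions lower and 8.79% higher. HY5, a factor of light signalling, had 64.6 and 63.7 in BRM bcl7ab and 74.8 and 76.0 in BRM. LHY, a morning factor of the clock, had 69.2 and 73.9 in BRM bcl7ab and 48.6 and 42.7 in BRM (adjusted p = 0.120, limma). SMXL7, a repressor of strigolactone responses, was the other one separated higher. In auxin transport and root genes, ARF5 and ARF19 were separated lower, 2 of 8 regions (25.0%, against 11.7%), and 0 were higher (against 8.79%). VAL1, a repressor of the seed programme, had 43.0 and 33.7 in BRM bcl7ab and 60.5 and 63.7 in BRM. At 3 of the 4 heat stress regions the groups overlapped. HSFA1A, a heat shock factor gene, had 54.1 and 46.3 in BRM bcl7ab and 57.1 and 68.0 in BRM, which did not overlap but lay closer than the spread within the groups (adjusted p = 0.451, limma).

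Of 20 genes of SWI/SNF subunits, 9 were bound in all 4 libraries. Of the 8 regions assigned to them, 0 were separated in either direction, beside 11.7% of all assigned regions lower and 8.79% higher. With 8 regions, a count of 0 cannot be set apart from these shares. BCL7A, one of the mutated genes, had no region assigned to it, and the peaks within 2 kb of its TSS had ranks of 32.7 and 33.7 in BRM bcl7ab and 61.6 and 50.9 in BRM. SWP73A had weak peaks in both BRM bcl7ab libraries (ranks of 1.42 and 2.62) and none in BRM. The region at BRM itself had ranks of 96.7 and 98.0 in BRM bcl7ab and 98.8 and 98.5 in BRM. Since each plant also carried the BRM transgene, reads from both copies cannot be told apart there.

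Gene families were also formed by the words of their RefSeq annotation. Over all 10148 assigned regions the median change was -0.97, with 11.7% separated lower and 8.79% higher. Ribosomal protein genes had a median change of -3.81 over 56 regions (5 lower, 2 higher), heat shock genes -4.55 over 52 (6 lower, 4 higher) and histone genes -2.54 over 23 (4 lower, 0 higher). WRKY factor genes had -1.77 over 45 regions (6 lower, 1 higher), and ethylene response factor or AP2 genes -0.21 over 97 (14 lower, 4 higher). Auxin-responsive or SAUR genes had a median change of -1.63 over 41 regions, with 10 separated lower (24.4%) and 4 higher (9.76%), and transposable element genes -13.5 over 6 regions (2 lower, 0 higher). Medians above 0 were found for, among others, NAC factor genes (+1.31 over 43 regions, 1 lower and 4 higher) and disease resistance genes (+1.59 over 71, 8 lower and 12 higher). By type of gene, the median change was -1.15 over 9220 protein-coding regions, +2.44 over 480 long noncoding RNA regions and -7.33 over 39 small nucleolar RNA regions. The lists differed in position and in strength too, and no test of a list was made. The median rank was 36.5 for ribosomal protein, 48.8 for heat shock and 81.4 for WRKY factor regions, against 61.4 over all assigned regions.

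The sites were also compared with those of BCL7A and BCL7B themselves, from 2 libraries of each protein in plants with BRM. A BCL7A peak in both libraries lay in 86.2% of the shared BRM regions and a BCL7B peak in 85.3%. These lists were made with other limits of peak calling, so only the position and presence of their called peaks were used. The median distance from the BRM summit to the BCL7A summit was 125 and 126 bp in BRM bcl7ab and 175.5 and 176.5 bp in BRM (exact permutation p = 0.333). For BCL7B it was 111.5 and 112 bp in BRM bcl7ab and 158 and 160.5 bp in BRM. Without BCL7 proteins, BRM summits thus stood nearer to the places where the BCL7 summits lay in plants that had them. Among regions with 1 peak per BRM library the distance to BCL7A was 115.5 bp in each BRM bcl7ab library and 153.5 and 155.5 bp in BRM.

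Changes of rank were seen with and without a called BCL7 peak. The 9150 regions with both proteins had a median change of -0.48, +2.07 upstream and -2.44 in the body. The 1251 regions with neither had a median change of -3.28, -0.74 upstream and -5.41 in the body. Their median rank was 33.6, so these were weak BRM peaks. BCL7 peaks may have been missed there by the limits of calling, so these regions are not known to lack the proteins. The order of upstream and body regions was the same in both sets.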

How the data were processed

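GFP ChIP-seq of 14-day-old seedlings was analysed from 4 deposited narrow peak lists, 2 of BRM bcl7ab and 2 of BRM, with 2 BCL7A and 2 BCL7B lists for position and presence of peaks. According to the study, the authors trimmed reads with fastp, mapped them to TAIR10 with Bowtie 2, discarded reads that were not unique and perfect matches, and ran MACS2 (2.1.1 in the submitters' processing notes) on each library. The authors deposited for each peak a fold enrichment (a ratio of summit pileup to background), the -log10 p-value and -log10 q-value. The lowest -log10 q in the 4 lists lay between 0.475 and 0.577, so weak peaks are included, although the methods state a stricter limit. Whether an input library entered peak calling is not given in the sources used here.

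Peaks of the 4 libraries that shared at least 1 bp were joined into regions. A region took the gene with the TSS (TAIR10.1, RefSeq) nearest to its mean summit, at most 2 kb away. Percentile rank, log2 width and summit distance were tested with limma 3.58.1 (R 4.3.3, empirical Bayes with trend) and Benjamini-Hochberg adjustment, threshold 0.05, over all regions, after the tests had been tried on simulated data. Single values per library were compared by exact permutation (SciPy 1.17.1, Python 3.11.15). Pileups and backgrounds were recovered from fold and p for 99.6% to 99.7% of peaks, within 0.01 in -log10 p. The replicates are biological according to the study.

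Genes were named by a rule: among separated regions with a gene, the 10 largest falls and 10 largest rises of rank, the 8 largest summit moves toward and 8 away from the TSS, the 5 largest decreases and 5 largest increases of width (moves and widths with 1 peak per library), the 3 strongest genes bound in each group alone, and examples from gene lists. Members, gene lists and tests were chosen with earlier results of these data known. The other 4 peak lists and the 8 other samples (spike-in ChIP-seq and MNase-seq) were not analysed here.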

Additional observations from a re-analysis of the deposited data

How the results depend on the processing

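The labels do not say whether libraries of the same replicate number were processed together across the groups. With a replicate block, limma called 160 regions lower and 134 higher in rank, against 55 and 31 without it, and moved summits fell to 0 toward and 0 away, against 59 and 86. The rank calls were 0 and 0 with peaks of -log10 q of 5 or more only, 0 and 0 without the trend, 32 lower and 20 higher with 50% reciprocal overlap, and 28 and 10 with 1 peak in each library. With equal numbers of peaks 27 were lower and 23 higher. They were 273 and 233 with normal scores of the ranks, and 399 and 349 with log2 fold enrichment. Leaving out 1 library gave 6 to 159 lower and 11 to 86 higher. Summit moves past the test were 22 toward and 31 away with 1 peak in each library, 31 and 44 within 1 kb, and 0 and 0 without any one library. No width change passed under any setting. Leaving out 1 library gave 2457 to 3152 regions separated lower and 1932 to 2466 higher in rank, 2052 to 2262 toward and 1418 to 1611 away, and 1746 to 2666 narrower and 1709 to 2378 wider, because with 1 library in a group only the other group has a spread. With -log10 q of 5 or more, 440 separated narrower. The difference in median width, 4.5 bp, became -25.25 bp with equal numbers of peaks, and -16.5 to 25.5 bp without 1 library. The other differences kept their direction without any 1 library: peaks -855 to -433, genes -970.5 to -307.5, summits within 200 bp of a TSS 4.41 to 4.80 percentage points, body minus upstream rank -7.74 to -6.49, and rich minus poor G and C -9.42 to -8.24. Settings for the last 2 were added after seeing the data. Body minus upstream was -5.83 with the genome-wide background, -8.95 with -log10 q of 5 or more, and -3.69, -6.13, -4.04 and -3.89 within quartiles of G and C. Rich minus poor was -7.74 in protein-coding genes, -7.36 with the genome-wide background, and -5.48, -5.59 and -5.67 within upstream, start and body regions. Of the named genes with separated groups, TOE1 alone changed direction, by 0.0677 ranks with equal numbers of peaks and by 0.0074 in log2 fold enrichment. The causes were not tested. The lists give no read counts, and peaks near the limit of calling appear in one library and not in another, so a missing peak is not a missing site.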
